A study of Mus musculus with 6 samples.

Results

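AP-1 is a family of paired transcription factors, and the 10 genes described here encode its basic leucine zipper proteins and Atf3: Fos, Fosb, Fosl1 and Fosl2, Jun, Junb and Jund, Atf3, and Batf and Batf3. The genes were chosen by symbol, each symbol matched 1 row, and they are 10 of the 54446 genes in the count table. In cultured mouse macrophages, regorafenib went with lower counts of Fos, Fosl1, Fosl2, Jun and Atf3 in each of the 3 polarization states. By their counting intervals, 6.91% of genes tested in all 3 states were also lower in each. Only Fosl1 was at least 2-fold lower in every state, and Fos was in M0. Fosl2 and Jun differed by less than 2-fold, and Atf3 in M0 (1.10-fold) by no more than Junb (at most 1.12-fold). Batf3 was higher with regorafenib in M2 (95 and 194 counts, log2 ratio 1.41), and so was Batf in M1 (1113 and 1960 counts, 0.92). Among the control libraries, Fosl1, Fosl2, Junb, Jund, Atf3 and Batf were at least 2-fold higher after IFN-γ and LPS than in M0, and Fosl2, Atf3 and Batf3 after IL4. With total counts in place of the scaling used here, Fosl1 and Jund stayed under 2-fold after IFN-γ and LPS (0.97 and 0.76 on the log2 scale). Jun, Junb and Jund were also higher after IL4, by less than 2-fold.

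AP-1 proteins bind DNA as dimers that are held together by a leucine zipper. Fos proteins need a Jun partner, whereas Jun proteins can also pair with each other and with Atf3 or the Batf proteins. In macrophages, Toll-like receptor and growth factor signals reach these genes through MAP kinase cascades. Fos, Jun and Atf3 are immediate early genes, whose transcripts appear soon after a stimulus and turn over quickly, so that RNA taken long after a stimulus does not read their early peak.

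Bone marrow-derived macrophages (BMDMs) were grown from male BALB/c mice aged 6 to 8 weeks in medium with 20% L929-conditioned medium, a source of CSF-1, for 7 days. The 6 groups were M0 control, M0 regorafenib, M1 control, M1 regorafenib, M2 control and M2 regorafenib. M0 cells received no polarizing cytokine, M1 cells 50 ng/mL of LPS with 20 ng/mL of IFN-γ for 24 hours, and M2 cells 20 ng/mL of IL4 for 24 hours. How long the M0 cells were kept beside them is not given in the sources used here. Regorafenib, a multikinase inhibitor that acts on VEGF receptors, RAF and other kinases, was given at 1 µM, 1 hour before polarization, and the treatment label of the other libraries is control, with DMSO named in the protocol. Each group has 1 library. How many mice or cultures each library holds is not given in the sources used here, and no difference between 2 libraries has a replicate check.

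The libraries held 25359309 to 34898342 counts. Nos2 held 410649 and 221627 counts in the M1 control and M1 regorafenib libraries and 39 to 50 elsewhere. Mrc1, a receptor induced by IL4, held 24237 and 12895 counts in M2 and 9 to 805 elsewhere. Not every M2 marker kept to M2. Ccl22 held 1295 and 6114 counts in M1 against 172 and 405 in M2, and Arg1 held 851 in M1 control and 1017 in M2 regorafenib. Of the 8 M2 markers, 5 were at least 2-fold higher and 2 lower in M2 regorafenib than in M2 control. All 8 macrophage markers were above 3 counts in every library, with a summed level of 21869 to 48726 CPM (counts relative to library size, here with TMM scaling). The T and NK cell list summed to 0 to 0.667 CPM and the B cell list to 0 to 0.107 CPM. The fibroblast list summed to 3.19 to 10.2 CPM. The neutrophil list summed to 84.8 to 158 CPM, nearly all of it Mpo and S100a8, and Ly6g was at 0 counts in every library. For both lists the lowest sum was M0 control and the highest M0 regorafenib. Between these libraries the macrophage sum went from 30918 to 48726 CPM. The part of such shifts in the M0 differences was not tested. The list of dendritic cells summed to 0.576 to 2.79 CPM in M0 and M2 and to 32.3 and 39.0 CPM in M1, most of which was Ccr7, while Flt3 held 0 to 3 counts and Clec9a 0 or 1. In bulk RNA, fewer cells of a type and less RNA per cell cannot be told apart.

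The 10 genes lie on 7 chromosomes, in GRCm38 coordinates, and counts are of reads on their exons. Fos (chr12:85473890-85477273) and Batf (chr12:85686669-85709087) are on the same chromosome, as are Atf3 (chr1:191170296-191218039) and Batf3 (chr1:191097847-191108945). Junb (chr8:84974484-84978718) and Jund (chr8:70698949-70700616) also share one. Jun is at chr4:95049034-95052222, Fosb at chr7:19302696-19310051, Fosl1 at chr19:5447547-5455946 and Fosl2 at chr5:32135801-32157842.

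Proximal promoters are shown for the members whose 250 bases before the RefSeq start site (GRCm38.p6) hold a match to a motif of the CREB, ATF or AP-1 proteins. Capitals mark the match, and each sequence runs 5′ to 3′ on the strand of the gene and ends 1 base before the start site. The window of Fos lies at chr12:85473640-85473889 (plus strand), Jun at chr4:95052223-95052472 (minus strand), Atf3 at chr1:191183334-191183583 (minus strand) and Batf at chr12:85686470-85686719 (plus strand).
Fos: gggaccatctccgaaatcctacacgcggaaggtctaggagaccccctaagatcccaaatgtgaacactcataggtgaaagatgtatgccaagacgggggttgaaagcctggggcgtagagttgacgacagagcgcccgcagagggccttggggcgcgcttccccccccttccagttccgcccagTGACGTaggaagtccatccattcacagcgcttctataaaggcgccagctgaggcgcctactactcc
Jun: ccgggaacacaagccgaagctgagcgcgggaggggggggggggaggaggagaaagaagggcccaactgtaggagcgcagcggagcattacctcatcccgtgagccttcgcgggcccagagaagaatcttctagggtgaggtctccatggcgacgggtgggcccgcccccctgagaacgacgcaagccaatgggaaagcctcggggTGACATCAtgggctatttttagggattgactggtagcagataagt
Atf3: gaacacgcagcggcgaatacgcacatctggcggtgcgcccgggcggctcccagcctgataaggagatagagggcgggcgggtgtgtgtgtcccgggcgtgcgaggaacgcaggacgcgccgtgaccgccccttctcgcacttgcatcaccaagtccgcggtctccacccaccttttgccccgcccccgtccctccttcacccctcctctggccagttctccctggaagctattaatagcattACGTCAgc
Batf: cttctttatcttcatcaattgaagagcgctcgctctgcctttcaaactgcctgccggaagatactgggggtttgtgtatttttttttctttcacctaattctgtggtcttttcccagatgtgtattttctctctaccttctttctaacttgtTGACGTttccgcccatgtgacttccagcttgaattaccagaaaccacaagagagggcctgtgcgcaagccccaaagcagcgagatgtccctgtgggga

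The Jun window holds TGACATCA at 45 to 38 bases before the start, a variant of the cAMP response element, and 2.93% of 32817 promoter windows of the same length hold it on either strand. The 6 letters TGACGT, part of the full element TGACGTCA, were searched after the windows had been read. They stand on 1 of the 2 strands in the Fos, Atf3 and Batf windows and in 6.46% of all windows, and in Atf3 they read ACGTCA on the strand of the gene. Neither TGACTCA (4.46% of windows), TGACGTCA (1.55%) nor a CArG box (1.47%), the element that serum response factor binds, stands in any of the 9 member windows. Windows were at hand for 9 of the 10 members, all but Fosl1. RefSeq and the annotation used for gene positions place some starts differently. The windows of Atf3, Batf3 and Fosl2 lie inside the annotated gene, those of Batf and Fosb overlap it at one end, and those of Jund and Junb lie apart from it, upstream. A match of letters is a description of the sequence and does not show binding.

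Where values are paired, the control library comes first and the regorafenib library second. Levels of different genes were compared per length, in TPM (counts divided by exon length and scaled to the same total in every library). Atf3 was the highest of the 10 genes in all 6 libraries, with 300.1 and 265 TPM in M0 control and M0 regorafenib, 613 against 482 in M1 and 821 against 719 in M2. The 3 Jun genes together held 36.5% to 51.5% of the members' TPM and the 4 Fos genes 6.27% to 16.7%. The highest Jun gene was Jun in M0 (174 and 120.5 TPM) and M2 (264 and 193 TPM), and Junb in M1 (325 and 335 TPM). Among the Fos genes, Fos led in M0 and M2, at 109.9 and 32.7 TPM in M0 and 94.2 and 54.5 TPM in M2. In M1 it was Fosl2, at 65.8 and 53.0 TPM against 36.3 and 22.3 TPM for Fos. Fosb stayed at 0.0288 to 0.462 TPM, and Batf3 passed 10 TPM in the M2 regorafenib library alone (15.1 TPM). Summed over the 10 genes, the level was 820 against 665 TPM in M0, 1353 against 1252 in M1 and 1535 against 1309 in M2, lower with regorafenib in each state. The stacked plot of TPM shows the shares.

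**Figure D1:**
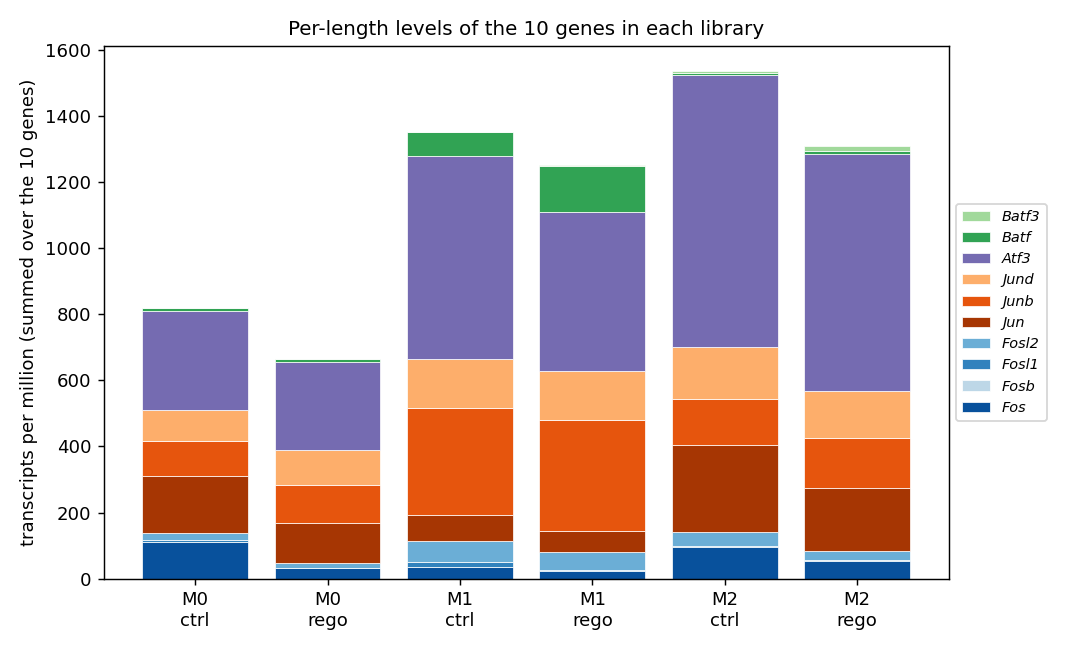
Level in TPM (vertical axis) of the 10 genes stacked for each of the 6 libraries (horizontal axis, ctrl for control and rego for regorafenib), 1 library per bar and no error. Atf3 is the largest segment of every bar, from 265 to 821 TPM.

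Comparing regorafenib with control asks what the drug goes with in each state, and counts were scaled by TMM for it. A log2 ratio is regorafenib over control, with a 95% interval from the counts of the gene that covers counting error only. A gene was called when its ratio was at least 1 in size, which is 2-fold, and 10 or more counts stood in the higher of both libraries. In M0, 2 of the 10 members were called, both lower, beside 20.4% of 13964 genes called in either direction, 9.47% higher and 10.9% lower. In M1, 3 members were called, 2 lower and 1 higher, beside 5.22% of 13440 genes (1.76% higher and 3.46% lower). In M2 it was 3, 1 lower and 2 higher, beside 11.2% of 13813 genes (6.15% higher and 5.07% lower). The median ratio of the 10 members was −0.26 in M0, −0.30 in M1 and −0.27 in M2, against 0.00497, −0.0202 and −0.0305 over all genes tested. Calls of Fosb and of Batf3 in M1 rest on libraries of under 50 counts. In all 3 states the interval lay below 0 for 5 members (Fos, Fosl1, Fosl2, Jun and Atf3), as for 6.91% of 12554 genes tested in all 3 states, and for none did it lie above 0 in all 3 (3.93% of genes). An interval narrows as counts rise, and Atf3 passed in M0 at 1.10-fold. The 12554 genes include many of few counts, whose intervals exclude 0 less readily, so that the members and this share differ in depth. The 5 members were the same with libraries scaled by total counts or by DESeq2 size factors.

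**Figure D2:**
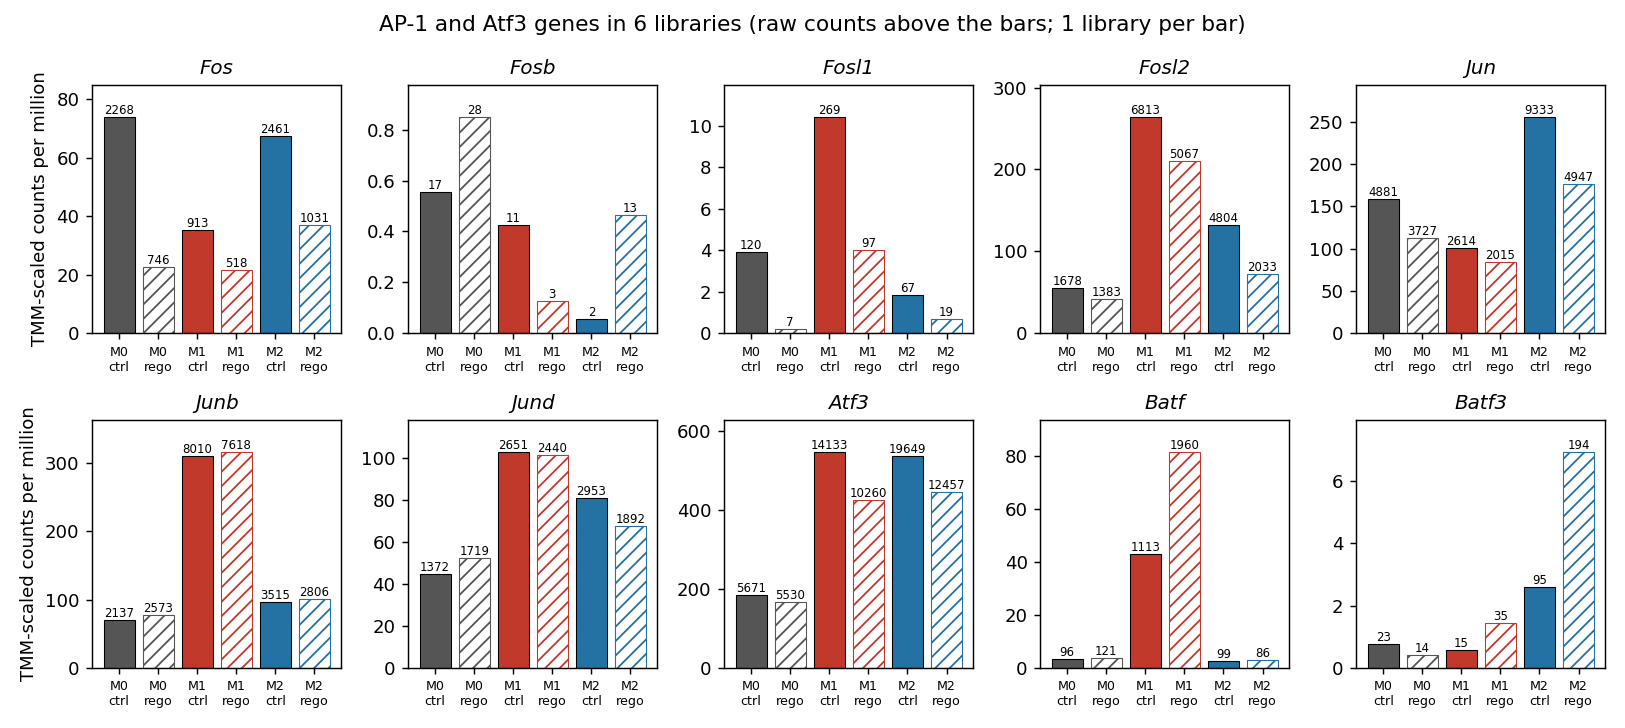
TMM-scaled CPM (vertical axis, own scale for each gene) of the 10 genes in the 6 libraries (horizontal axis), control as filled and regorafenib as hatched bars, with the raw count above each bar and 1 library per bar. The regorafenib bar of Fos, Fosl1, Fosl2, Jun and Atf3 is below its control bar in all 3 states, and the 2 M1 bars of Batf stand above the others.

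Fos, the founding member of the Fos branch and a partner of Jun proteins, held 2268 and 746 counts in M0 control and M0 regorafenib, 913 against 518 in M1 and 2461 against 1031 in M2. The regorafenib library was the lower one in each state, and the 2 M1 libraries and the M0 regorafenib library were the lowest in CPM. The log2 ratio was −1.71 in M0 (interval −1.83 to −1.59), a call, −0.72 in M1 (−0.88 to −0.56) and −0.87 in M2 (−0.98 to −0.77). Within a library, free of scaling, Fos had 0.465 counts per count of Jun in M0 control and 0.200 in M0 regorafenib. The same ratio was 0.349 against 0.257 in M1 and 0.264 against 0.208 in M2, so that it was lower with regorafenib in each state.

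Fosl1 encodes Fra-1, which lacks the transactivation domain of Fos. It held 120 against 7 counts in M0, 269 against 97 in M1 and 67 against 19 in M2, and the M0 regorafenib library was the lowest. It was called lower in each state, with a log2 ratio of −4.20 in M0 (interval −5.55 to −3.11), −1.37 in M1 (−1.72 to −1.03) and −1.43 in M2 (−2.25 to −0.68). With 1 CPM added to both values, the ratio was −2.02 in M0 and −1.18 in M1, and the call in M2 was lost at −0.76. Its exons share 1163 bases with Ccdc85b on the opposite strand, a gene of 393 against 430 counts in M0, 174 against 137 in M1 and 585 against 270 in M2. Which strand setting the counting used is not stated, and the part of that overlap in the counts of Fosl1 was not tested.

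Fosl2 encodes Fra-2, another Fos protein without that domain. It held 1678 against 1383 counts in M0, 6813 against 5067 in M1 and 4804 against 2033 in M2. The regorafenib library was lower in each state, with a log2 ratio of −0.38 in M0 (−0.48 to −0.28), −0.33 in M1 (−0.38 to −0.27) and −0.86 in M2 (−0.93 to −0.78), none of them a call. Fosb, an activity-induced Fos gene, held 17 and 28, 11 and 3, and 2 and 13 counts in the 3 states. Its log2 ratio was 0.62 in M0 (−0.30 to 1.58) and −1.77 in M1 (−4.25 to 0.15), a call by size although both intervals held 0. In M2 the log2 ratio was 3.08 (0.94 to 6.27), from a control library of 2 counts. With 1 CPM added, neither call of Fosb held (−0.34 in M1 and 0.47 in M2).

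Jun, which pairs with Fos proteins and with itself, held 4881 against 3727 counts in M0, 2614 against 2015 in M1 and 9333 against 4947 in M2. The log2 ratio was −0.49 in M0 (−0.55 to −0.43), −0.28 in M1 (−0.36 to −0.19) and −0.53 in M2 (−0.58 to −0.48). These differences were all in 1 direction and at most 1.45-fold. Junb, a weaker activator than Jun in many settings, did not share this direction, with 2137 and 2573, 8010 and 7618, and 3515 and 2806 counts. Its log2 ratio was 0.17 in M0 (0.08 to 0.25), 0.03 in M1 (−0.02 to 0.07) and 0.06 in M2 (−0.01 to 0.13). Junb shares 173 exon bases with Prdx2 on the opposite strand, a gene of 4317 to 7608 counts. The number of Junb counts per Jun count was 0.438 against 0.690 in M0, 3.06 against 3.78 in M1 and 0.377 against 0.567 in M2, higher with regorafenib in each state.

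Jund, a broadly expressed Jun gene, held 1372 and 1719, 2651 and 2440, and 2953 and 1892 counts. Its log2 ratio was 0.22 in M0 (0.12 to 0.33), −0.02 in M1 (−0.10 to 0.06) and −0.26 in M2 (−0.34 to −0.17), and the sign in M1 turned to 0.02 when libraries were scaled by total counts. Its level in TPM spanned 1.70-fold over the 6 libraries, the narrowest range of the 10 genes, while that of Fosl1 spanned 34.8-fold. In TMM-scaled CPM the range of Jund was 1.20 on the log2 scale, more than 2-fold and again the narrowest. Its size therefore depends on the scaling. An antisense gene, Gm11175, shares 877 exon bases with Jund and held 17 to 62 counts.

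Atf3, a factor that restrains Toll-like receptor responses and a marker of the stress response, held 5671 against 5530 counts in M0, 14133 against 10260 in M1 and 19649 against 12457 in M2. The regorafenib library was lower in each state, by a log2 ratio of −0.14 (−0.19 to −0.08), −0.36 (−0.40 to −0.32) and −0.27 (−0.31 to −0.24). With these many counts the intervals are narrow, and the largest of the 3 ratios was 1.28-fold.

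Batf and Batf3 encode short proteins that pair with Jun proteins and bind with Irf4 or Irf8, and Batf3 is required for a class of dendritic cells. Batf held 96 against 121 counts in M0, 1113 against 1960 in M1 and 99 against 86 in M2. The M1 regorafenib library was the highest, with a log2 ratio of 0.92 to its control (0.81 to 1.02), just under the call, while the intervals held 0 in M0 (−0.17 to 0.63) and M2 (−0.25 to 0.61). Batf3 held 23 and 14, 15 and 35, and 95 and 194 counts, so that the M2 regorafenib library was the highest. It was called higher in M1 (log2 ratio 1.32, 0.41 to 2.30) and M2 (1.41, 1.05 to 1.78), and in M0 the ratio was −0.82 with an interval that held 0 (−1.89 to 0.20). With 1 CPM added the call in M1 was lost (0.63) and that in M2 held (1.14). Irf4 also held more counts with regorafenib, 855 and 1607 in M2 (log2 ratio 1.29) and 55 and 162 in M0 (1.46). Irf8 was not called in any state, with log2 ratios of 0.58 in M0, −0.05 in M1 and 0.21 in M2.

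Of the dendritic cell list, 8 of 8 genes were in the table, 1 was above 3 counts in every library and 2 were at 3 or fewer in all. Its summed level was 0.619 against 0.576 CPM in M0, 32.3 against 39.0 in M1 and 0.904 against 2.79 in M2. Zbtb46 held 14 against 5 counts in M0, 9 against 5 in M1 and 15 against 59 in M2. Xcr1 held 36 and 102 counts in M1 and 0 or 1 elsewhere, and Ccr7 780 and 827 in M1 and 2 to 9 elsewhere. The other 5 genes of the list held 0 to 7 counts in every library and went in both directions. The part of dendritic cells in the Batf and Batf3 levels was not tested.

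**Figure D3:**
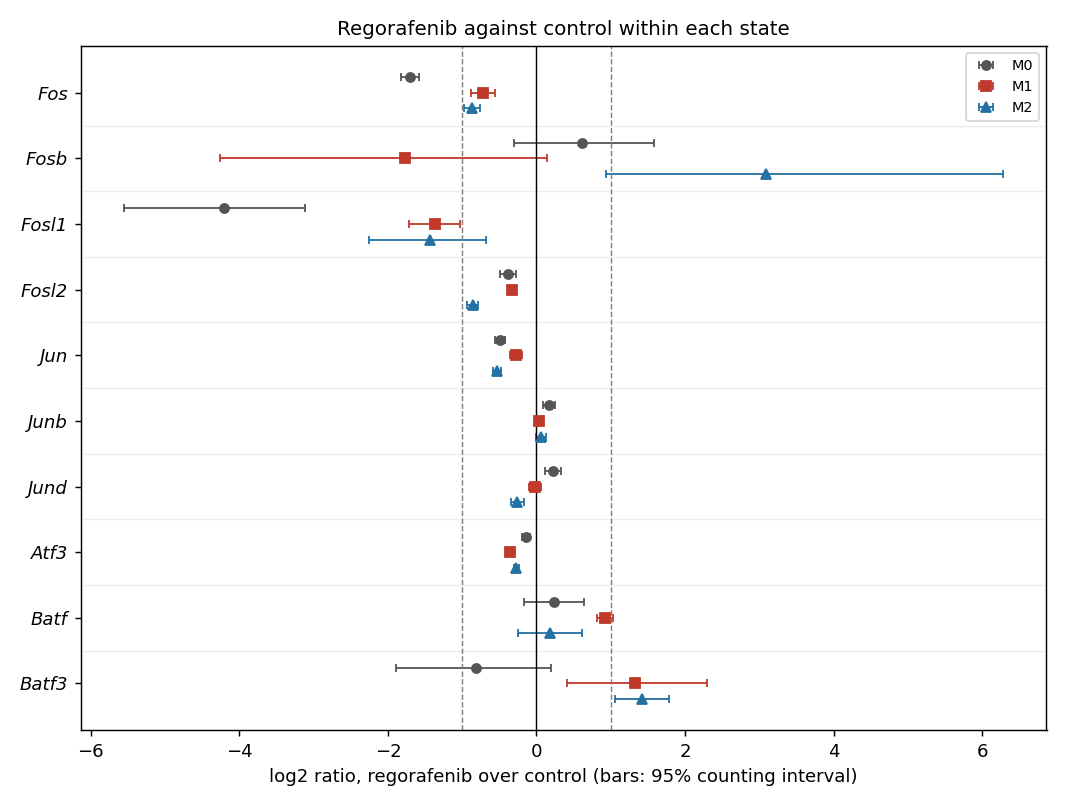
Log2 ratio of regorafenib over control (horizontal axis) for the 10 genes (vertical axis) in M0, M1 and M2, with the 95% counting interval as a bar and the 2-fold call as dashed lines. Fosl1 lies left of the call line in all 3 states and Junb lies near 0. The widest interval is that of Fosl1 in M0 and that of Fosb in M1 and M2.

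A change common to M0, M1 and M2 was sought in an additive model of state and treatment over the 6 libraries, by the quasi-likelihood test of edgeR, so that 3 libraries with regorafenib were set against 3 without. No member passed a Benjamini-Hochberg adjusted p under 0.05 in edgeR, and of all 14110 genes 0 did (0%). At an unadjusted p under 0.05 there were 1637 genes and 4 members. The log2 changes of these 4 were −1.08 for Fos (standard error 0.23, edgeR adjusted p = 0.315), −2.10 for Fosl1 (0.56, 0.347), −0.51 for Fosl2 (0.15, 0.385) and −0.42 for Jun (0.13, 0.385). The change of Fosl1 was −1.38 without either M0 library and −2.64 without either M1 library. DESeq2 with the same model called 296 of 13334 genes (2.22%) and 2 members, Fos (adjusted p = 0.00741) and Fosl1 (adjusted p = 0.0196). edgeR without a filter on low counts also called these 2 (adjusted p = 0.0158 and 0.0202), beside 333 of 24938 genes (1.34%), so that the call depends on the tool and the filter. The residual of this model has 2 degrees of freedom and measures how the regorafenib difference varies between the 3 states.

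Polarization was compared with M0 among the control libraries and again among the regorafenib libraries. The M1 and M2 comparisons of each set share their M0 library, and their values are therefore given side by side. Between M1 control and M0 control, 7 of 10 members were called (6 higher and 1 lower), beside 37.1% of 14168 genes (17.4% higher and 19.7% lower). Between the M1 and M0 regorafenib libraries it was also 7 (6 higher and 1 lower), beside 37.9% of 14159 genes (16.3% higher and 21.6% lower). With IL4, 5 members were called among the controls (3 higher and 2 lower), beside 12.3% of 13830 genes (4.69% higher and 7.61% lower). With regorafenib 3 were called, all higher, beside 9.59% of 13841 genes (4.41% higher and 5.18% lower). Scaling by total counts moved the median of all genes by −0.44 between M1 and M0 control, and the share of higher genes among all calls from 46.8% to 30.3%. Among the members, total counts gave 4 higher and 2 lower in M1 control: the calls of Fosl1 (0.97) and Jund (0.76) ended and Jun was called lower (−1.09). Between the M1 and M0 regorafenib libraries the call of Atf3 ended (0.93). With 1 CPM added, the calls between M2 and M0 control of Fosb (−0.56) and Fosl1 (−0.79) ended, as did that of Fosl1 between the M2 and M0 regorafenib libraries (0.47) and those of Fosb (−0.72) and Batf3 (0.78) between the M1 and M0 regorafenib libraries.

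Batf showed the widest M1 difference of the 10 genes. Its log2 ratio of M1 to M0 was 3.78 among controls (3.48 to 4.10) and 4.47 with regorafenib (4.20 to 4.75), while those of M2 to M0 were −0.20 (−0.62 to 0.22) and −0.26 (−0.67 to 0.15). Fosl2 was 2.27 (2.19 to 2.35) higher in M1 control and 2.33 (2.24 to 2.41) higher in M1 regorafenib on the log2 scale. Junb was 2.16 and 2.02 higher, and Jund 1.20 and 0.96 higher. Fosl1 was 1.41 higher in M1 control and 4.24 higher in M1 regorafenib, the latter against an M0 library of 7 counts.

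In the other direction, Fos was lower in M1 control than in M0 control (−1.06, −1.18 to −0.95), whereas the 2 regorafenib libraries differed by −0.07 with an interval that held 0 (−0.24 to 0.09). With total counts these values were −1.50 and −0.49. Between M2 and M0, the log2 ratio of Fos was −0.13 among controls and 0.70 with regorafenib. Jun was also lower in M1, by a log2 ratio of −0.65 among controls and −0.44 with regorafenib. The M1 libraries thus held more Fosl2 and Junb and less Jun than the M0 libraries. Counts of Fosl2 per count of Fos were 0.740 against 1.85 in M0, 7.46 against 9.78 in M1 and 1.95 against 1.97 in M2.

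Atf3 was higher in both polarized states. Its log2 ratio to M0 was 1.57 (M1) and 1.54 (M2) among controls, and 1.34 and 1.41 with regorafenib. With total counts these values were 1.13 and 1.45 among controls and 0.93 and 1.38 with regorafenib, so that how M1 and M2 compare depends on the scaling. In M2, Jun was 0.69 higher among controls and 0.65 higher with regorafenib, Fosl2 was 1.27 and 0.79 higher, Jund 0.86 and 0.38, and Junb 0.47 and 0.36. Batf3 was 1.80 (1.13 to 2.52) higher in M2 control and 4.03 (3.25 to 4.93) higher in M2 regorafenib, from M0 libraries of 23 and 14 counts. Fosl1 lay on opposite sides of its M0 libraries. Its log2 ratio of M2 to M0 was −1.09 (−1.54 to −0.65) among controls and 1.68 (0.36 to 3.17) with regorafenib, where the M0 library held 7 counts.

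**Figure D4:**
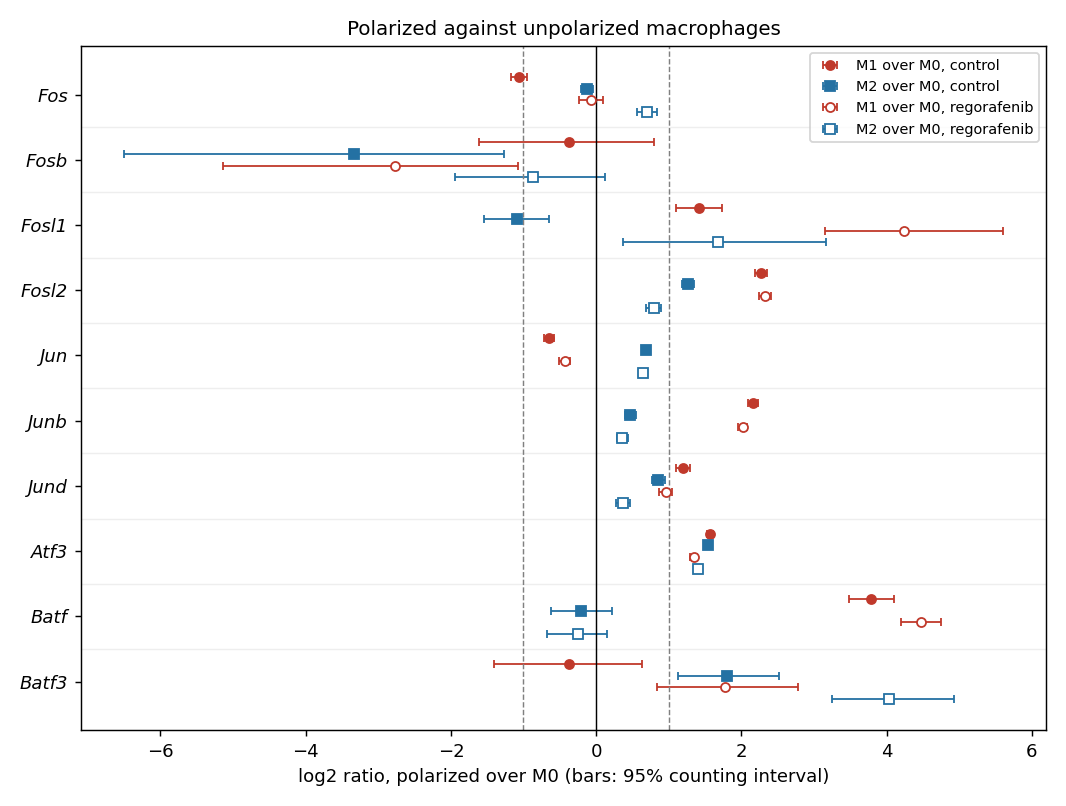
Log2 ratio of a polarized library over its M0 library (horizontal axis) for the 10 genes (vertical axis), M1 in red circles and M2 in blue squares, filled for control and open for regorafenib, with 95% counting intervals as bars and the 2-fold call as dashed lines. Filled and open symbols of Atf3, Junb and Fosl2 in M1 lie close together, and those of Fosl1 lie apart.

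In the additive model each state had 2 libraries, 1 control and 1 regorafenib. For M1 against M0, 6 of 10 members rose by edgeR's test at an adjusted p under 0.05 and none fell, beside 36.7% of 14110 genes called (18.5% higher and 18.2% lower). Batf rose by a log2 change of 4.20 (standard error 0.28, edgeR adjusted p = 0.000572), Junb by 2.15 (0.16, 0.000733), Fosl2 by 2.36 (0.20, 0.000929), Atf3 by 1.51 (0.17, 0.00225), Jund by 1.13 (0.18, 0.00564) and Fosl1 by 5.28-fold (standard error 0.67 on the log2 scale, 0.0370). The size for Fosl1 rests on single libraries, at 19.2-fold without M0 control, 2.78-fold without M0 regorafenib and 8.72-fold without M1 control. Without the M1 regorafenib library, Fosl1 no longer passed (3.56-fold, adjusted p = 0.0961) and Jun did (log2 change −0.60, 0.0400). Leaving out the M0 regorafenib library brought Fos past the threshold (−0.97, 0.0190), and leaving out M0 control brought Batf3 past it (1.85, 0.0388).

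For M2 against M0, no member passed in edgeR, beside 28 of 14110 genes (0.198%, with 0.184% higher and 0.0142% lower), and 1309 genes and 6 members had an unadjusted p under 0.05. The nearest were Atf3 (log2 change 1.48, standard error 0.17, edgeR adjusted p = 0.0614), Fosl2 (1.05, 0.19, 0.118) and Batf3 (2.83, 0.61, 0.180). DESeq2 called these 3 (adjusted p = 6.37e-11, 0.00166 and 0.00582), beside 410 of 14301 genes (2.87%). edgeR without a filter also called them (adjusted p = 0.000672, 0.0146 and 0.00405), beside 408 of 24938 genes (1.64%). In edgeR, Atf3 passed when the M0 regorafenib (0.0377), M1 control (0.0240) or M1 regorafenib library (0.0236) was left out, and Batf3 when M0 control was (0.0173). These fits called 2.01%, 1.70%, 1.79% and 0.672% of all genes, in that order.

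The genes with the most similar profile were found for the 5 members whose CPM spanned at least 4-fold and that reached 100 counts. Likeness was the root mean square difference of log2 CPM over the 6 libraries, each profile centred on its own mean, and it is a description over few libraries. Junb had the closest neighbours, Errfi1 (0.0936), N4bp1 (0.136) and Idnk (0.143). Those of Fosl2 were Ripk2 (0.179), Hsph1 (0.203) and Pmepa1 (0.232), and those of Batf were Wfdc17 (0.250), D16Ertd472e (0.274) and Src (0.279). Batf3 was closest to Dcstamp (0.203), a gene of macrophage fusion with 340 and 577 counts in M2 and 46 to 112 elsewhere, and then to Ssc5d (0.671) and Itgax (0.738). Fosl1 had no near neighbour, with Gm9247 (0.543), Slamf9 (0.630) and Hspa1b (0.662) as the nearest.

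Gene lists around AP-1 were described in the same way, and their counts of called genes are to be read against those of all genes tested. The lists were chosen with earlier results of these data known, so that a difference from all genes is not an independent result. Among all genes, regorafenib went with 9.47% called higher against 10.9% lower in M0, 1.76% against 3.46% in M1 and 6.15% against 5.07% in M2. The median log2 ratio of all genes was 0.0050 in M0, −0.02 in M1 and −0.03 in M2. Of 25 kinases and factors upstream of AP-1, such as Mapk8 and Srf, 0 were called higher with regorafenib in any state and 1 was called lower in M0 and M2, Mapk11, with 228 and 102 counts in M0 (log2 ratio −1.26) and 134 and 50 in M2 (−1.04). None was called in M1. The list median was 0.03 in M0, −0.07 in M1 and −0.03 in M2.

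Other immediate early genes went in both directions. In M0, 2 of 28 were higher and 8 lower (all genes 9.47% and 10.9%), with a median of −0.32. Of those with at least 100 counts, Myc (1142 and 193, −2.67) and Ptgs2 (214 and 69, −1.73) had the lowest ratios, and Zfp36l1 (324 and 1267, 1.87) and Btg2 (593 and 1744, 1.45) the highest. In M1, 1 of 28 was called, Dusp1, a phosphatase of p38 and JNK (2057 and 807 counts, −1.25). In M2, 5 of 28 were higher and 1 lower (all genes 6.15% and 5.07%), with Rhob (13286 and 2364, −2.11) the lowest and Btg2 (520 and 843, 1.08) and Pim1 (767 and 1219, 1.05) the highest of those with at least 100 counts.

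Genes with known AP-1 control include proteases, cytokines and the cyclin gene Ccnd1, and all of them have other regulators too. This list was also chosen with earlier results known, and its shares beside those of all genes are a description. In M0, 11 of 20 tested were lower and 2 higher (all genes 10.9% and 9.47%), with a median of −1.14 beside 0.0050 over all genes. In M2, 7 of 22 were lower and 3 higher (all genes 5.07% and 6.15%), with a median of −0.65 beside −0.03. In M1, 2 of 24 were lower and 1 higher (all genes 3.46% and 1.76%), with a median of 0.08 beside −0.02. Of those with at least 100 counts, the lowest were Ccl2 (11274 and 149 counts, log2 ratio −6.34) and Ccnd1 (29262 and 1921, −4.03) in M0, Ccl2 (30618 and 649, −5.18) and Gja1 (206 and 20 counts, −2.98) in M2. The highest were Vegfa in M0 (134 and 312, 1.12) and Itgax in M2 (5849 and 9449, 1.08). In M1, Gja1 was called lower (3441 and 1435 counts, −1.16), whereas Ccl2 was higher but not called (19070 and 33467 counts, 0.91, interval 0.89 to 0.94). Csf2, at 70 and 462 counts, was the highest in M1 (2.82).

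The other bZIP genes were called in both directions. In M0, 5 of 31 were higher and 2 lower (all genes 9.47% and 10.9%), in M1 0 of 30 and 1 (1.76% and 3.46%), and in M2 2 of 31 and 1 (6.15% and 5.07%). The higher count in M0 stood above the share of all genes. The counts in M1 and M2 and the lower count in M0 were near or under those of all genes. Of those with at least 100 counts in M0, Dbp (216 and 891, 1.94) and Cebpd (546 and 1294, 1.14) were highest and Creb5 (827 and 363, −1.29) was lowest. Among 12 factors that bind with AP-1 proteins, Ets2 was called lower in M0 (5416 and 1146 counts, −2.34) and M2 (2774 and 772, −1.46), and in M1 its ratio was −0.59. Irf4 was the 1 gene of this list called higher, in M0 and in M2, and Ets1 was called lower in M1 (530 and 160 counts, −1.63).

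**Figure D5:**
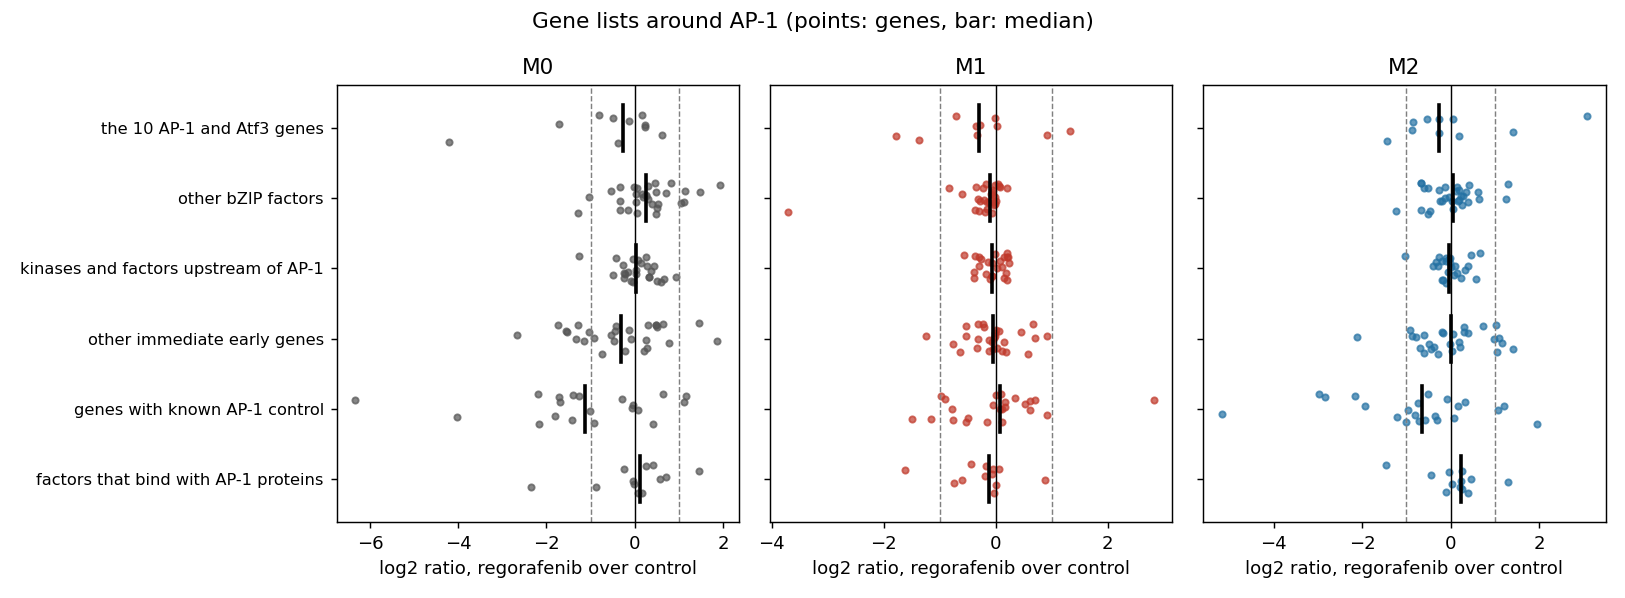
Log2 ratio of regorafenib over control (horizontal axis) of the genes of each list (vertical axis) in M0, M1 and M2, 1 point per gene that entered the comparison (10 or more counts), the list median as a black bar and the 2-fold call as dashed lines. The median of the genes with known AP-1 control is −1.14 in M0, 0.08 in M1 and −0.65 in M2.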

How the data were processed

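RNA was sequenced from 6 BMDM libraries with paired reads of 100 bases. By their methods and the processing notes, the authors trimmed reads with cutadapt 2.4, mapped them to GRCm38 with STAR 2.7.2a and counted them per gene on Gencode M19 with STAR. They deposited whole-number counts, not normalized, and the strand column taken is not given in the sources used here. Names, positions and exon lengths came from Gencode M21 (GRCm38), which matched 53229 of 54446 identifiers with their version and 1180 without it.

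Counts were scaled with TMM (edgeR 4.0.16, R 4.3.3), with factors of 0.820 to 1.12. A log2 ratio has a conditional exact binomial interval (95%, Python 3.11.15, scipy 1.17.1), counting error only, and a count of 0 was set to 0.5. Genes were called at 2-fold or more where either library had 10 or more counts. With 1 library per group these calls carry no p. The study called genes with NOISeq without replicates, which is not used here. The additive model (state and treatment) was fitted by edgeR's quasi-likelihood test after filterByExpr, with DESeq2 1.42.0 as an alternative, and its standard error is the change over the square root of F. p-values measure only how the treatment difference varies between the states of these libraries. The interval and the fit were also run on simulated counts. Those for the fit held no difference between states in the response to regorafenib, and those for the interval held counting error only. They do not test either method on the spread of these data.

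Named list genes were the 2 highest and 2 lowest ratios of a list in each state among genes with 100 or more counts in either library. Genes named outside that rule (cell markers, overlapping genes and genes close to a member) are given with their counts. The values of some list genes are not reported here. The members and lists were chosen with earlier results of these data known. Motifs were searched in RefSeq promoter windows of 250 bases on both strands. Protein sequences were not used here. Depth was 25359309 to 34898342 counts per library. Scaling, filters on low counts, the fold for a call, the tool and each library in turn were varied.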

Additional observations from a re-analysis of the deposited data

Results flagged for a closer look

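Jund stood out because the counting intervals of its regorafenib ratio lay on opposite sides of 0 in M0 and M2. The ratios of Batf3 (−0.82 in M0 and 1.41 in M2) and Fosb (−1.77 in M1 and 3.08 in M2) also changed sign. The interval of Batf3 held 0 in M0, and that of Fosb held 0 in M1. The log2 ratio of Jund was 0.22 in M0 (1372 and 1719 counts) and −0.26 in M2 (2953 and 1892 counts), so that the ratio in M2 was −0.48 against that in M0. Each state has 1 library per treatment, and the difference was not tested.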

How the results depend on the processing

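No paired analysis was possible because the labels carry no replicate numbers and each group has 1 library, and state is already a term of the model. Called at 1.5-fold, M0 regorafenib against control gave 4 members (1 higher and 3 lower, beside 39.2% of all genes), M1 gave 5 (2 and 3, beside 13.4%) and M2 gave 5 (2 and 3, beside 25.3%). At 4-fold, M0 gave 1 (lower, beside 5.34%), M1 gave 0 (beside 0.93%) and M2 gave 1 (higher, beside 2.45%). With 1 CPM added, M1 gave 1 (lower, beside 154 of 13440 genes) and M2 gave 1 (higher, beside 4.09%), and with at least 50 counts M1 gave 1 (lower, beside 2.15%). M1 control against M0 control gave 3 at 4-fold (all higher, beside 18.7%). M2 control against M0 control gave 3 with 1 CPM added (all higher, beside 5.64%) and 1 at 4-fold (lower, beside 415 of 13830 genes). M2 against M0 with regorafenib gave 7 at 1.5-fold (6 higher and 1 lower, beside 20.8%) and 1 at 4-fold (higher, beside 2.54%).

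In the additive model, the regorafenib term called 296 genes and 2 members with DESeq2, 333 and 2 without a filter, and 0 to 814 genes with 1 library left out (814 without M1 regorafenib, 726 without M1 control). The M2 term called 410 genes and 3 members with DESeq2, 408 and 3 without a filter, and 77 to 294 genes and 0 to 1 member with 1 library left out. The cause was not tested.

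The sign of the regorafenib ratio of Jund in M1 turned with total counts, to 0.022. With 1 library left out, the log2 change of the regorafenib term ran from −0.23 to 1.31 for Fosb, −0.12 to 0.11 for Jund and −2.64 to −1.38 for Fosl1. That of the M1 term ran from −2.97 to 0.060 for Fosb, −0.35 to 1.85 for Batf3 and 1.48 to 4.26 for Fosl1, and that of the M2 term from −0.16 to 0.76 for Fos, −1.10 to 1.69 for Fosl1 and 1.82 to 4.01 for Batf3. Adding 1 CPM moved the share of higher genes among calls from 46.4% to 37.0% in M0 and from 46.0% to 59.0% for M2 against M0 with regorafenib, and total counts moved it from 43.1% to 27.7% for M1 against M0 with regorafenib. The count of members below 0 in all 3 states was repeated under other scalings, an alternative chosen after seeing the data. Libraries of under 50 counts limit the ratios of Fosb, Fosl1 and Batf3.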
